A study of Mus musculus with 20 samples.

Results

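A set of 10 genes that mark macrophages was followed through RNA of mouse pancreas around birth: Adgre1, Csf1r, Cd68, Lyz2, C1qa, C1qb, C1qc, Mrc1, Cd163 and Cx3cr1. They were taken by gene symbol, and each was read by 1 named probe set. All 10 passed the signal filter that left 17993 of 30063 named genes for testing. The pancreases came from C57BL/6J mice on 20 Affymetrix transcript arrays. Embryonic day 18.5 (E18.5) had 4 wild-type (Iir +/+) and 5 knockout (Iir -/-) arrays, and the day of birth (P0) had 5 wild-type and 6 knockout arrays. Iir, now named Elapor1, encodes inceptor, a membrane protein that dampens insulin receptor signalling. Starvation lasted 2 h in the mothers at E18.5 but 5 h in the pups themselves at P0. Age and starvation therefore cannot be told apart in any comparison of the ages. All P0 arrays also had lower running sample numbers than all E18.5 arrays, so age and sample order cannot be told apart either. The labels give no sex, litter or pooling of animals, nor whether arrays of a group come from different animals; p-values here measure only the spread between these samples, which may be technical.

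Macrophages seed the pancreas before birth from embryonic precursors, and they depend on the cytokine CSF1 acting through its receptor CSF1R. They engulf dying cells, a task served by scavenger receptors such as CD163 and the mannose receptor MRC1, by the lysosomal protein CD68, by lysozyme and by the bridging complement protein C1q. In the developing pancreas they are known for supporting islet growth and vascular remodelling.

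Values are log2 signals, on which a difference of 1 is a doubling. The array medians lay between 4.81 and 4.94. A gene whose group means all lay within 1 log2 unit of the array median was called weakly measured, which applied to Adgre1, C1qa and C1qc. The other 7 genes were clearly measured in at least 1 group, although Cd163 lay only 0.53 above the array median in E18.5 wild type and 0.47 above it in E18.5 knockouts. Elapor1 checked the labels: its log2 signal was 11.86 ± 0.22 (SD, n = 4) in wild type and 6.31 ± 0.30 (SD, n = 5) in knockouts at E18.5, and 11.54 ± 0.35 (SD, n = 5) and 6.05 ± 0.30 (SD, n = 6) at P0, with no overlap. The lowest Pearson correlation between arrays was 0.979. Marker genes of neighbouring organs varied between arrays of all groups. Hepatocyte marker means ran from 7.36 to 13.10, and intestinal epithelium means reached 6.54 in E18.5 wild type. Only intestinal and skeletal muscle means were used to pick marker-rich arrays, by a mean over 7, which 3 knockout arrays had. The mean of the skeletal muscle markers was 7.40 on E18.5 knockout 1 and 7.84 on P0 knockout 4, and that of the intestinal epithelium markers was 7.59 on E18.5 knockout 2. Results that rest on these 3 arrays are given with and without them.

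Between E18.5 and P0 the clearest rise was in Cd68, which rose in both genotypes. In knockouts Cd163, Mrc1 and Csf1r rose as well. None of these 4 knockout calls held when the 3 marker-rich arrays were left out or with the intestinal marker mean as a covariate. All called genes between the knockout ages fell as well, from 4139 to 1913 without these arrays and to 1814 with this covariate. All 3 arrays are knockouts, so leaving them out also leaves fewer knockout arrays to compare. The differences of the 4 genes stayed above 0 in both settings. C1qa, a weakly measured gene that entered the test only through its E18.5 wild-type arrays, was lower at P0 in wild type. No gene of the 10 passed the test between knockout and wild type at either age. In whole-organ RNA, a change in the number of macrophages and a change in RNA per macrophage cannot be told apart. In wild type 1 of the 10 genes was called higher at P0 and 1 lower (limma, adjusted p under 0.05 over all tested genes), where 4.76% of all tested genes were called higher and 4.1% lower. In knockouts 4 of the 10 were called higher and 0 lower, where 11.3% of all tested genes were called higher and 11.7% lower. Whether past the test or not, 7 of the 10 differences were above 0 in wild type and 9 in knockouts, where 51.2% and 49.3% of all tested genes were. The median log2 difference of the 10 was 0.22 in wild type and 0.47 in knockouts, against 0.006 and -0.004 over all tested genes. Without the 3 marker-rich arrays the knockout differences were 0.03 for Lyz2 and 0.24 for C1qb, against 0.57 and 0.51 with them. The knockout difference of C1qa then turned below 0.

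**Figure D1:**
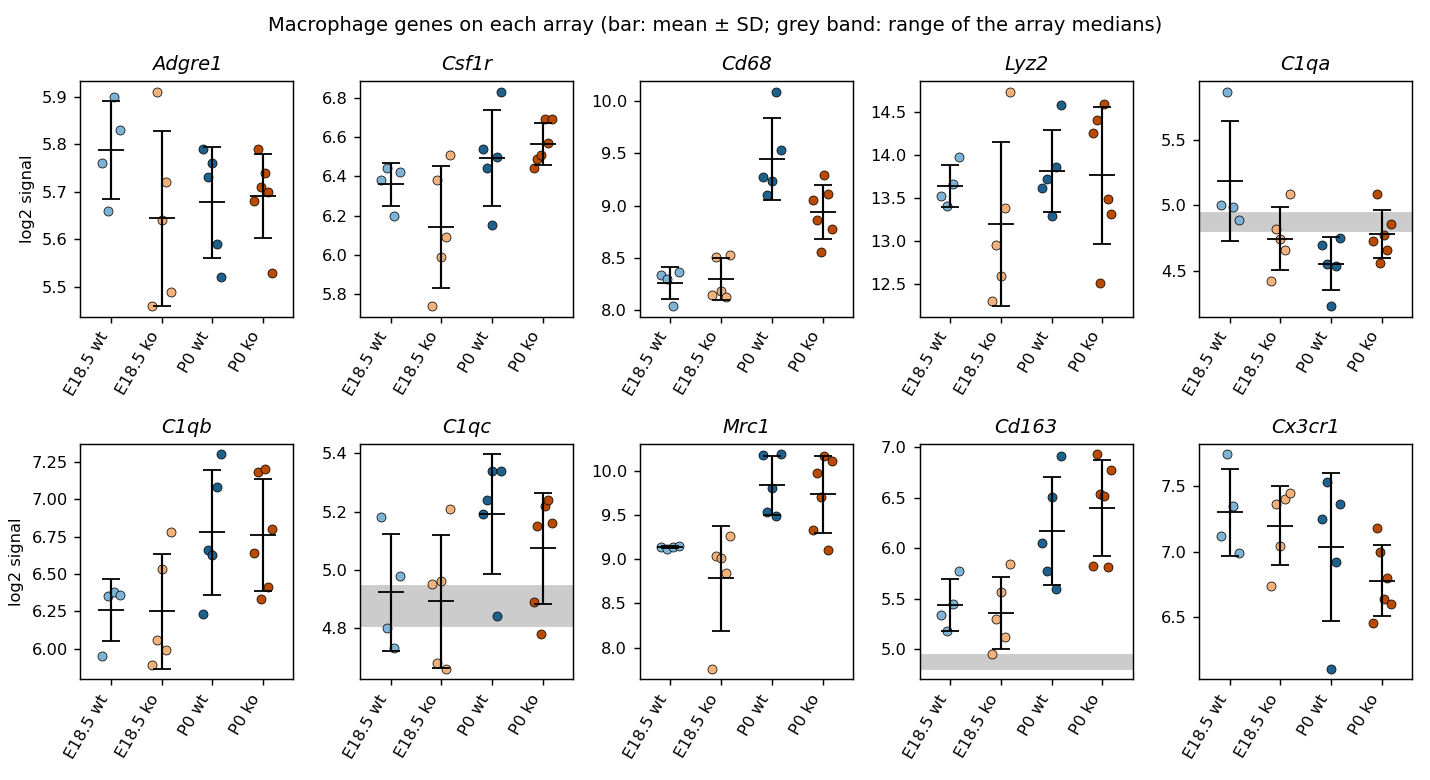
Log2 signal (y axis, own scale for each gene) of the 10 macrophage genes on each of 20 arrays, by group (x axis); points are arrays, black bars the mean ± SD, and the grey band the range of the array medians where it falls in view. All P0 arrays of Cd68 lie above all its E18.5 arrays, whereas C1qa and C1qc lie around the array median.

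Csf1r encodes the receptor through which CSF1 and IL-34 keep macrophages alive. Its log2 signals were 6.38, 6.44, 6.20 and 6.42 on the E18.5 wild-type arrays and 5.74, 6.38, 5.99, 6.09 and 6.51 on the E18.5 knockout arrays. At P0 they were 6.54, 6.44, 6.15, 6.50 and 6.83 in wild type, and in knockouts the lowest was 6.44, the median 6.54 and the highest 6.69. The knockout arrays at P0 were tightly grouped and sat at or above nearly every E18.5 array. They overlapped the E18.5 knockouts only through the highest of those. In wild type, P0 array 3 (6.15) lay below all E18.5 arrays. The other P0 wild-type arrays read 6.44 or more, where the highest E18.5 wild-type array read 6.44. Csf1r rose in knockouts by 0.42 ± 0.12 (SE, adjusted p = 0.0193, limma) and differed by 0.13 ± 0.14 in wild type (adjusted p = 0.608). The knockout call was lost without E18.5 knockout 1 (0.33, adjusted p = 0.0611), without E18.5 knockout 3 (0.39, adjusted p = 0.0515) and when the 3 marker-rich arrays were dropped (0.35, adjusted p = 0.119).

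Cd68 encodes a heavily glycosylated protein of the macrophage lysosome. Its signals at E18.5 were 8.34, 8.30, 8.04 and 8.37 in wild type and 8.15, 8.51, 8.18, 8.13 and 8.53 in knockouts. At P0 the wild-type arrays read 9.27, 9.10, 9.24, 10.09 and 9.53, and the knockout arrays ran from 8.56 through a median of 8.95 to 9.29. Every P0 array was above every E18.5 array of either genotype, and wild-type array 4 was the highest of all. Cd68 rose by 1.18 ± 0.18 in wild type (2.27-fold, adjusted p = 0.000957) and by 0.64 ± 0.16 in knockouts (1.56-fold, adjusted p = 0.00751). The wild-type call held with each array left out in turn, at differences of 1.02 to 1.27. The knockout call was lost when the 3 marker-rich arrays were dropped (0.59, adjusted p = 0.0625).

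Lyz2 encodes lysozyme M, which is made by macrophages, monocytes and neutrophils. At E18.5 it read 13.52, 13.40, 13.66 and 13.97 in wild type and 12.30, 12.95, 12.59, 13.38 and 14.73 in knockouts. At P0 it read 13.61, 13.72, 13.28, 13.86 and 14.58 in wild type and 12.51 to 14.59 in knockouts, with a median of 13.87. All 4 groups overlapped, and the knockout arrays spread far more widely than the E18.5 wild-type arrays. The age difference was 0.17 ± 0.45 in wild type (adjusted p = 0.867) and 0.57 ± 0.40 in knockouts (adjusted p = 0.344), neither beyond the spread. Its near-identical paralog Lyz1 has a probe set of its own, and the probes may share signal.

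Adgre1 encodes an adhesion receptor that is a classical surface marker of mouse macrophages. It was weakly measured and nearly flat, at 5.76, 5.66, 5.90 and 5.83 in E18.5 wild type and 5.46, 5.91, 5.64, 5.72 and 5.49 in E18.5 knockouts. In P0 pancreas Adgre1 read 5.79, 5.73, 5.76, 5.59 and 5.52 in wild type and 5.53 to 5.79 in knockouts, with a median of 5.70. All groups overlapped, and the whole range over 20 arrays was 0.44. Adgre1 differed between the ages by -0.11 ± 0.09 in wild type (adjusted p = 0.467) and by 0.05 ± 0.08 in knockouts (adjusted p = 0.728).

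C1qa, C1qb and C1qc encode the 3 chains of C1q, which starts the classical complement pathway and tags dying cells. C1qb, the best measured, read 5.95, 6.35, 6.38 and 6.36 in E18.5 wild type and 5.89, 6.06, 6.53, 5.99 and 6.78 in E18.5 knockouts. At P0 it read 6.23, 6.66, 6.63, 7.08 and 7.30 in wild type and 6.33 to 7.20 in knockouts, with a median of 6.72. The ages overlapped in both genotypes, although the highest values were at P0. The age difference of C1qb was 0.52 ± 0.23 in wild type (adjusted p = 0.177) and 0.51 ± 0.21 in knockouts (adjusted p = 0.0886). It was called in knockouts without E18.5 knockout 5 (0.65, adjusted p = 0.0364). Without the 3 marker-rich arrays its knockout difference was 0.24.

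C1qa lay around the array median, at 5.00, 5.87, 4.99 and 4.89 in E18.5 wild type and 4.70, 4.55, 4.23, 4.54 and 4.75 in P0 wild type. The wild-type ages did not overlap, and array 2 at E18.5 was far above the rest. C1qa was lower at P0 in wild type by -0.63 ± 0.18 (adjusted p = 0.0332). It passed the signal filter, which asks for 4 arrays above their median, only through E18.5 wild type, with 3 such arrays there against 1 in E18.5 knockouts, 0 in P0 wild type and 2 in P0 knockouts, and without any filter the adjusted p was 0.0483. This call was lost without E18.5 wild type 2 (-0.40, adjusted p = 0.111), E18.5 wild type 1 (adjusted p = 0.0526), P0 wild type 2 (0.0501), P0 wild type 3 (-0.55, 0.0858) or P0 wild type 4 (0.0525). In knockouts C1qa read 4.42, 4.82, 4.74, 4.66 and 5.09 at E18.5 and 4.56 to 5.09 at P0, with a median of 4.75. The knockout ages overlapped fully, with a difference of 0.03 ± 0.16 (adjusted p = 0.911).

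C1qc read 5.18, 4.80, 4.73 and 4.98 in E18.5 wild type and 4.95, 4.68, 4.96, 4.66 and 5.21 in E18.5 knockouts. At P0 it read 5.19, 5.24, 5.34, 4.84 and 5.34 in wild type and 4.78 to 5.24 in knockouts, with a median of 5.16. All groups overlapped, near the level of the array median. In wild type, only P0 array 4 (4.84) lay below the highest E18.5 array (5.18). The age differences of C1qc were 0.27 ± 0.14 in wild type (adjusted p = 0.241) and 0.18 ± 0.12 in knockouts (adjusted p = 0.318).

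Mrc1 encodes the mannose receptor CD206, an endocytic receptor of tissue-resident macrophages. Its E18.5 wild-type arrays read 9.14, 9.12, 9.14 and 9.15, the tightest group of any of the 10 genes, and the E18.5 knockout arrays read 7.76, 9.04, 9.02, 8.84 and 9.27. The P0 arrays read 10.18, 9.54, 9.81, 9.49 and 10.19 in wild type and 9.11 to 10.17 in knockouts, with a median of 9.84. All P0 wild-type arrays lay above all E18.5 wild-type arrays, whereas the knockout ages overlapped and E18.5 knockout 1 was far below its group. Mrc1 rose in knockouts by 0.95 ± 0.24 (1.93-fold, adjusted p = 0.00883), a call lost when the 3 marker-rich arrays were dropped (0.61, adjusted p = 0.0919). In wild type the difference was 0.71 ± 0.27 (adjusted p = 0.109), and it was called without E18.5 knockout 1, an array outside that comparison that enters the shared estimate of the spread (adjusted p = 0.0398). It was also called when the wild-type arrays were fitted alone (adjusted p = 0.0416).

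Cd163 encodes a scavenger receptor for haemoglobin bound to haptoglobin. It read 5.34, 5.18, 5.45 and 5.78 in E18.5 wild type and 4.95, 5.30, 5.57, 5.12 and 5.84 in E18.5 knockouts. The P0 arrays read 6.05, 5.78, 6.51, 5.60 and 6.91 in wild type and 5.81 to 6.93 in knockouts, with a median of 6.53. Most P0 arrays lay above the E18.5 arrays of their genotype, with overlap at the edges in both. Cd163 rose in knockouts by 1.04 ± 0.25 (2.06-fold, adjusted p = 0.00593), higher than the E18.5 mean in 6 of 6 arrays. Dropping the 3 marker-rich arrays ended this call (0.86, adjusted p = 0.0964). In wild type the difference was 0.73 ± 0.28 (adjusted p = 0.105).

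Cx3cr1 encodes the receptor of the chemokine fractalkine and marks resident macrophages and some monocytes. It read 7.12, 7.74, 7.35 and 6.99 in E18.5 wild type and 6.74, 7.36, 7.04, 7.40 and 7.45 in E18.5 knockouts. At P0 it read 7.25, 7.53, 6.11, 6.92 and 7.36 in wild type and 6.46 to 7.18 in knockouts, with a median of 6.72. All groups overlapped, and P0 wild type 3 was the lowest array. Its age difference, below 0 in both genotypes, was -0.27 ± 0.24 in wild type (adjusted p = 0.542) and -0.42 ± 0.22 in knockouts (adjusted p = 0.187), neither beyond the spread.

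**Figure D2:**
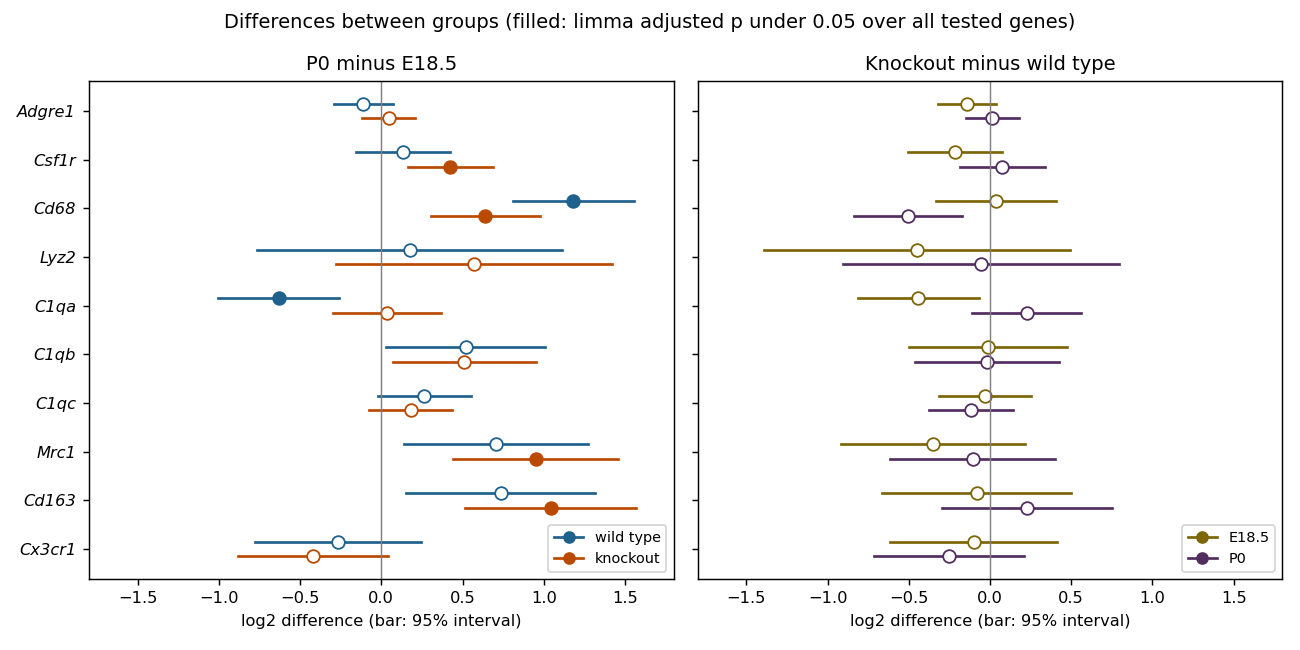
Log2 differences (x axis) of the 10 macrophage genes (y axis) between the ages within each genotype (left) and between genotypes at each age (right); points are estimates over all arrays of a group, bars 95% intervals, and filled points have a limma adjusted p under 0.05. Cd68 is filled in both genotypes on the left, at 1.18 in wild type and 0.64 in knockouts, and no point is filled on the right.

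The order of the group means was the same for Lyz2, C1qb, C1qc and Mrc1, with P0 wild type first, then P0 knockout, E18.5 wild type and E18.5 knockout. For Csf1r and Cd163 the P0 knockouts stood first and the E18.5 knockouts last. Cx3cr1 had both E18.5 groups above both P0 groups. Among neighbours in these orders, only the P0 knockouts and E18.5 knockouts of Cd68 did not overlap. Over the 10 genes, 2 had P0 wild-type arrays wholly above the E18.5 wild-type arrays (Cd68 and Mrc1) and 1 wholly below (C1qa), where 6.24% and 5.36% of all tested genes did so. In knockouts 1 of the 10 was wholly above (Cd68) and 0 wholly below, where 5.9% and 6.55% of all tested genes were.

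Without the 3 arrays rich in muscle or intestinal markers, 0 of the 10 genes were called between the knockout ages, where 1913 of 17993 tested genes were. With the intestinal marker mean as a covariate 0 of the 10 were called as well, where 1814 of all tested genes were. The differences of Cd68, Cd163, Mrc1 and Csf1r were then 0.66, 0.97, 0.91 and 0.46. The share of this marker signal in the age differences was not tested.

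The age difference averaged over both genotypes, a comparison chosen after seeing the data, used all 20 arrays. Of the 10 genes 5 were called higher at P0, where 15.8% of all tested genes were, and 0 lower, where 14.7% were. They were Cd68 (0.91 ± 0.12, adjusted p = 3.06e-05), Cd163 (0.89 ± 0.19, adjusted p = 0.00155), Mrc1 (0.83 ± 0.18, adjusted p = 0.00213), C1qb (0.52 ± 0.16, adjusted p = 0.0182) and Csf1r (0.28 ± 0.09, adjusted p = 0.0295). Without the 3 marker-rich arrays Cd68 (0.89, adjusted p = 0.000364), Mrc1 (0.66, adjusted p = 0.00566) and Cd163 (0.80, adjusted p = 0.0147) were still called, where 12% of all tested genes were called higher. C1qb (0.38, adjusted p = 0.114) and Csf1r (0.24, adjusted p = 0.0733) were then not called. The averaged difference of Cx3cr1 was -0.34 ± 0.16 (adjusted p = 0.127), and that of Lyz2 was 0.37 ± 0.30 (adjusted p = 0.389).

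The bases before the start of Cd68, Mrc1, Cd163 and C1qb are shown, 4 of the 5 genes that were higher at P0 in that averaged comparison; Csf1r is not shown. PU.1, the factor that governs the myeloid lineage, binds sites with the core GAGGAA. Capitals mark GAGGAA, or TTCCTC for the same letters on the other strand. The sequences are the 250 bases before the start in RefSeq (build GRCm38.p6), read 5′ to 3′ in the direction of the gene: Cd68 at chr11:69666171-69666420 (minus strand), Mrc1 at chr2:14229164-14229413 (plus strand), C1qb at chr4:136886201-136886450 (minus strand) and Cd163 at chr6:124304401-124304650 (plus strand).
Cd68: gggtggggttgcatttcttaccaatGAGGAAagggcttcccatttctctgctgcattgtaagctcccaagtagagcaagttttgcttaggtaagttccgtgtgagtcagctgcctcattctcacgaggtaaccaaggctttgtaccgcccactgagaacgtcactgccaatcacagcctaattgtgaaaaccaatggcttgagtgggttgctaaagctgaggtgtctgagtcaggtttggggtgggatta
Mrc1: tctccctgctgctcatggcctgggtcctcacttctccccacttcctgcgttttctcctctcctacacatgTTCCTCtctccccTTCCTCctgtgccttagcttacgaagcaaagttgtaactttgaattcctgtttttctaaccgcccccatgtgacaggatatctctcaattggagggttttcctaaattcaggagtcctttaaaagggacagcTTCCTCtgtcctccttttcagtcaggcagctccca
C1qb: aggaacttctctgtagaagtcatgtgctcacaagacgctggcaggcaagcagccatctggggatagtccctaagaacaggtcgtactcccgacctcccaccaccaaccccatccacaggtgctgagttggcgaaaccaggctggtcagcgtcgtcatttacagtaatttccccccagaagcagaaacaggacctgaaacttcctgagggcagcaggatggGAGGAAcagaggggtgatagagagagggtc
Cd163: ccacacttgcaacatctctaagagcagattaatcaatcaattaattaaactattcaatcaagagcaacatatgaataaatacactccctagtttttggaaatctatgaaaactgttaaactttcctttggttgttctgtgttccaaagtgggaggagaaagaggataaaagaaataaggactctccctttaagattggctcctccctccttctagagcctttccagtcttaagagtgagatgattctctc
Mrc1 had 3 matches, starting 180, 167 and 35 bases before the start, Cd68 had 1 at 225 bases and C1qb had 1 at 30 bases. Cd163 had 0 in this window. Of 32851 RefSeq mouse promoters cut to the same length, 23.3% held at least 1 match on either strand, and of the 7 promoters of the 10 genes that were searched 4 did. A match describes the letters only.

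Between knockout and wild type, the comparison asked whether loss of inceptor moved these genes. At E18.5 0 of the 10 were called, where 0.0111% of all tested genes were called lower and 0% higher. At P0 0 were called as well, with 0.0111% of all tested genes called. Only C1qa at E18.5 had an unadjusted p under 0.05 there (-0.44 ± 0.18, limma adjusted p = 0.872, with all 5 knockouts under the wild-type mean); it is weakly measured. At P0 only Cd68 did, at -0.50 ± 0.16 (limma adjusted p = 0.424). All 6 knockout arrays read under the wild-type mean, with overlap between the genotypes.

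At E18.5 1 of the 10 differences was above 0, Cd68 at 0.04, and the median was -0.12, against 56.9% of all tested genes above 0. Without the 3 marker-rich arrays, C1qb (0.17), C1qc and Cd163 (0.073) also turned above 0 at E18.5. Cd68 turned to -0.0047 with quantile normalization repeated and to -0.0074 with cyclic loess, and C1qb, at -0.01, turned to 0.0024 with arrays centred on their medians. At P0 4 of the 10 were above 0, with a median of -0.04, against 52.1% of all tested genes above 0. The 95% intervals at P0 ran from -0.19 to 0.34 for Csf1r, from -0.62 to 0.40 for Mrc1, from -0.30 to 0.75 for Cd163 and from -0.84 to -0.17 for Cd68. For Lyz2 the interval of -0.90 to 0.8 was the widest of the 10 at P0. The genotype effect differed between the ages for 0 of the 10 genes and 0 of 17993 genes overall (limma, adjusted p under 0.05), with 1256 genes at an unadjusted p under 0.05. The largest such differences were C1qa (0.67 ± 0.24, adjusted p = 0.634) and Cd68 (-0.54 ± 0.24, adjusted p = 0.697).

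Within a group, single arrays were high or low in many of the genes together. E18.5 knockout 5 was the highest of its group in 7 of the 7 clearly measured genes and averaged 0.55 above the group mean. E18.5 knockout 1 was below the group mean in all 7 and the lowest in 6 of them, averaging -0.53 against it. P0 wild type 5 was above its group mean in 7 of 7. P0 knockout 3 was the lowest of its group in 3 of the 7, with Lyz2 at 12.51.

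Markers of other cells moved with E18.5 knockout 5, whose hepatocyte marker mean was 12.79, neutrophil marker mean 8.53 and mast cell marker mean 8.09, each the highest of its group. On P0 wild type 5, the hepatocyte marker mean was 7.36, the lowest of all 20 arrays. On E18.5 knockout 1 the mast cell marker mean, at 6.67, was the lowest of the 20 arrays. The part of these cells in the pattern was not tested.

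**Figure D3:**
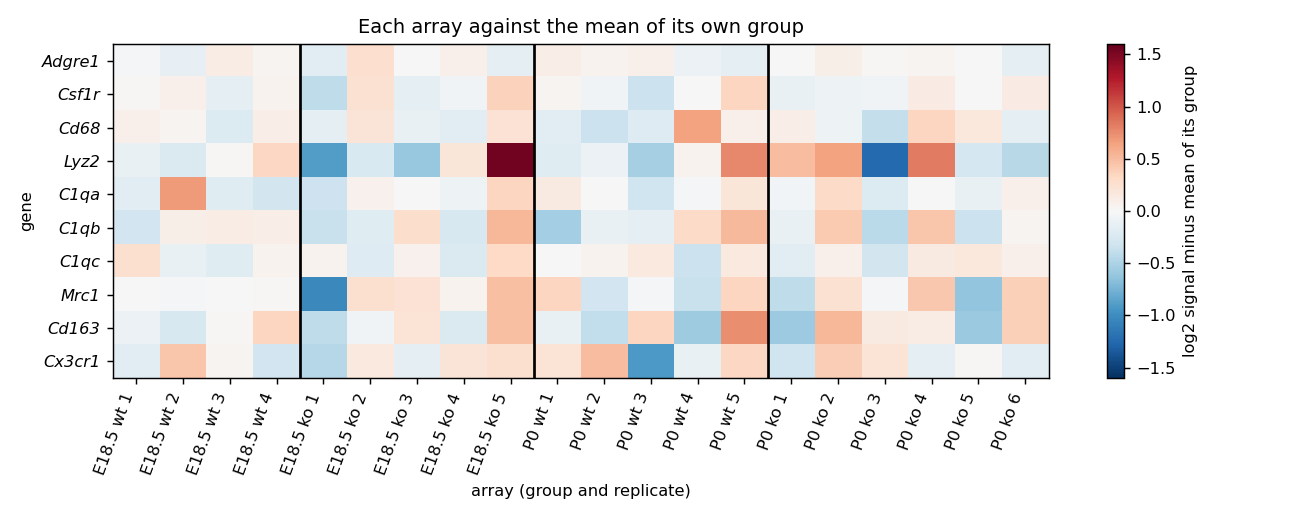
Log2 signal minus the mean of its own group (colour) for the 10 macrophage genes (rows) on each of 20 arrays (columns, by group and replicate). E18.5 knockout 5 is above its group in all 7 clearly measured genes and E18.5 knockout 1 below it in all 7.

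The genes whose values followed these 7 most closely were ranked by Pearson r over 20 arrays, after the group means were taken away, with the mean of the 7 scaled genes. These were Echdc2 (0.886), Htra3 (0.832), Stab1 (0.79), Tyrobp (0.784), Ccl6 (0.782), Samhd1 (0.779), Phactr2 (0.776) and Lyz1 (0.771). The arrays share organ make-up, so r is given as a description only. The set depended on single arrays: 2 of the 8 were again among the first 8 without E18.5 knockout 5, and 3 without E18.5 knockout 1, P0 knockout 4, P0 wild type 3 or P0 wild type 5. Of the 7 genes themselves, Csf1r followed their mean most closely (r = 0.849), then Lyz2 (0.801) and C1qb (0.792), while Cx3cr1 (0.47) and Cd68 (0.466) followed it least.

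Macrophage-related genes beyond the 10 were read through 8 lists, whose signals in whole-organ RNA cannot be assigned to macrophages alone. Their counts are to be set against the 4.76% (wild type) and 11.3% (knockouts) of all tested genes called higher at P0. The shares called lower were 4.1% and 11.7%. Of 19 tested general macrophage and myeloid genes, 5 rose in wild type and 11 in knockouts, with 0 lower in either, and the medians were 0.37 and 0.43. Msr1, a scavenger receptor for modified lipoproteins, rose by 0.92 ± 0.22 in wild type (adjusted p = 0.0152) and by 1.15 ± 0.20 in knockouts (adjusted p = 0.000595). Its highest wild-type array at E18.5 read 6.99 and its lowest at P0 read 7.31, so the ages did not overlap. In knockouts the adaptor of activating receptors Tyrobp rose by 1.0 ± 0.26, the Fc receptor gamma chain Fcer1g by 0.84 ± 0.21 and the lysosomal protease Ctss by 0.84 ± 0.22. In wild type their differences were 0.37, 0.70 and 0.66 (adjusted p = 0.468, 0.0738 and 0.103).

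Without the 3 marker-rich arrays the knockout count of these 19 genes fell to 5, and Tyrobp, Fcer1g and Ctss were not called (adjusted p = 0.116, 0.0773 and 0.0964). The wild-type count was 1 without E18.5 wild type 2, where Msr1 was lost (0.84, adjusted p = 0.0597), and 3 without E18.5 wild type 3 or P0 wild type 3.

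Of 11 resident and scavenger macrophage genes, 3 rose in wild type and 5 in knockouts, with 0 lower. Pf4, a chemokine of platelets that resident macrophages also express, rose by 1.74 ± 0.37 in wild type (3.35-fold, adjusted p = 0.00845) and by 1.86 ± 0.34 in knockouts (3.64-fold, adjusted p = 0.000843). Its arrays did not overlap between the ages in either genotype, and in wild type the highest E18.5 array read 12.44 and the lowest P0 array 13.32. Lyve1, the hyaluronan receptor of lymphatic vessels and perivascular macrophages, rose by 1.08 ± 0.31 (adjusted p = 0.0377) and 1.4 ± 0.28 (adjusted p = 0.00172). Folr2, the folate receptor beta of resident macrophages, rose by 0.91 ± 0.26 in knockouts and differed by 0.67 ± 0.29 in wild type (adjusted p = 0.155). Gas6, a bridge between dying cells and their receptors, rose by 0.60 ± 0.16 and 0.47 ± 0.15.

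Of these calls, those of Lyve1 in wild type and of Gas6 in both genotypes were lost under several single-array omissions. Without P0 wild type 5 the values were 0.78 for Lyve1 (adjusted p = 0.067) and 0.51 for Gas6 (0.0752), and without E18.5 wild type 1 or 3 neither was called. In knockouts Gas6 was 0.41 without E18.5 knockout 1 (adjusted p = 0.079), where Folr2 was 0.79 (0.0516). The count of 3 in wild type was 1 without E18.5 wild type 1, E18.5 wild type 3, P0 wild type 3 or P0 wild type 5. The count of 5 in knockouts was 2 without E18.5 knockout 1 and likewise 2 with the 3 marker-rich arrays left out, and it was 3 without E18.5 knockout 2, E18.5 knockout 4, P0 knockout 2 or P0 knockout 4.

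Of 9 tested genes of the classical complement pathway and its receptors, 3 rose and 1 fell in wild type, and 5 rose and 2 fell in knockouts. Serping1, the inhibitor of the C1 proteases, rose by 1.12 ± 0.17 (adjusted p = 0.00137) and 1.35 ± 0.16 (adjusted p = 3.09e-05), without overlap between the ages. The complement protease C2 rose by 0.60 ± 0.14 and 0.85 ± 0.12; averaged over its probe sets, the wild-type value was 0.31 (adjusted p = 0.0679), and without E18.5 wild type 1 it was 0.55 (0.0502). The integrin beta chain Itgb2, which pairs in complement receptors on leukocytes, went the other way and was lower by -0.80 ± 0.13 (adjusted p = 0.00153) and -0.61 ± 0.11 (adjusted p = 0.00106). Calr, which encodes the chaperone calreticulin, a binder of C1q that is abundant in secretory cells, was lower in knockouts by -1.70 ± 0.27 (adjusted p = 0.000289) and differed by -0.84 ± 0.30 in wild type (adjusted p = 0.0834). Without the 3 marker-rich arrays 5 of the 9 were called in knockouts.

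Of 8 tested genes of the CSF1 axis and macrophage regulators, 1 rose in wild type and 2 in knockouts. Csf1 itself read 6.18 to 6.33 at E18.5 and 6.41 to 6.88 at P0 in wild type, without overlap. It rose by 0.35 ± 0.08 (adjusted p = 0.0129) and by 0.48 ± 0.07 in knockouts (adjusted p = 0.000209); fitted on the wild-type arrays alone, the wild-type p was 0.0694 (adjusted). The transcription factor Maf rose in knockouts by 0.38 ± 0.13 (adjusted p = 0.0463), a call that most omissions of a single array ended, and its p was 0.104 (adjusted) without E18.5 knockout 1.

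Of 10 chemokine genes and receptors, 0 passed in wild type (limma, with 1 at an unadjusted p under 0.05) and 1 fell in knockouts. That was Ccr2, the monocyte chemokine receptor (-0.48 ± 0.14, adjusted p = 0.0209), which was not called when E18.5 knockout 4 was left out (-0.40, adjusted p = 0.0662) or when the 3 marker-rich arrays were (-0.54, adjusted p = 0.0583). Ccl3 and Ccl24 differed by 0.51 ± 0.24 and -0.20 ± 0.18 in wild type, and neither passed (adjusted p = 0.207 and 0.543). Ccl3 was called without E18.5 wild type 3 (0.89, adjusted p = 0.00194).

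Of 11 tested lysosome genes, which other cells also express, 3 rose in wild type and 4 in knockouts. Lamp2, a lysosomal membrane protein, rose by 0.57 ± 0.09 and 0.59 ± 0.08 (adjusted p = 0.0014 and 0.000114). In knockouts Psap and Grn, which encode precursors of lysosomal proteins, rose by 0.59 ± 0.14 and 0.54 ± 0.14. In wild type Lamp1 rose by 0.49 ± 0.14 (adjusted p = 0.0372), a call lost without any 1 of the E18.5 wild-type arrays or of P0 wild type 1 to 4. Without the 3 marker-rich arrays 1 of the 11 was called in knockouts.

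Of 5 tested antigen presentation genes, 0 passed in either genotype (limma, with 0 at an unadjusted p under 0.05). Among them H2-Ab1 differed by -0.09 ± 0.21 and 0.25 ± 0.19, H2-DMa by -0.15 ± 0.08 and -0.10 ± 0.08, and H2-Eb1 by 0.06 ± 0.22 and 0.29 ± 0.20, in wild type and knockouts.

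Of 8 tested iron-handling genes, 2 rose in each genotype. Haem oxygenase Hmox1, which degrades haem, read 7.28 to 7.55 at E18.5 and 9.59 to 11.52 at P0 in wild type. It rose by 2.79 ± 0.38 (6.91-fold, adjusted p = 0.000475) and by 3.0 ± 0.34 in knockouts (7.98-fold, adjusted p = 2.58e-05). The biliverdin reductase Blvra rose in wild type by 0.38 ± 0.11 (adjusted p = 0.0418) and Hpgd, a prostaglandin-degrading enzyme, in knockouts by 2.15 ± 0.70 (adjusted p = 0.0347). Both calls were lost under several single-array omissions. Blvra was 0.32 (adjusted p = 0.146) without E18.5 wild type 2, and Hpgd was 1.71 (adjusted p = 0.0701) without P0 knockout 2. Averaged over both genotypes, Hpgd and Blvra were called with all arrays (limma adjusted p = 0.0412 and 0.024). They were not called without the 3 marker-rich arrays (limma adjusted p = 0.115 and 0.0718).

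**Figure D4:**
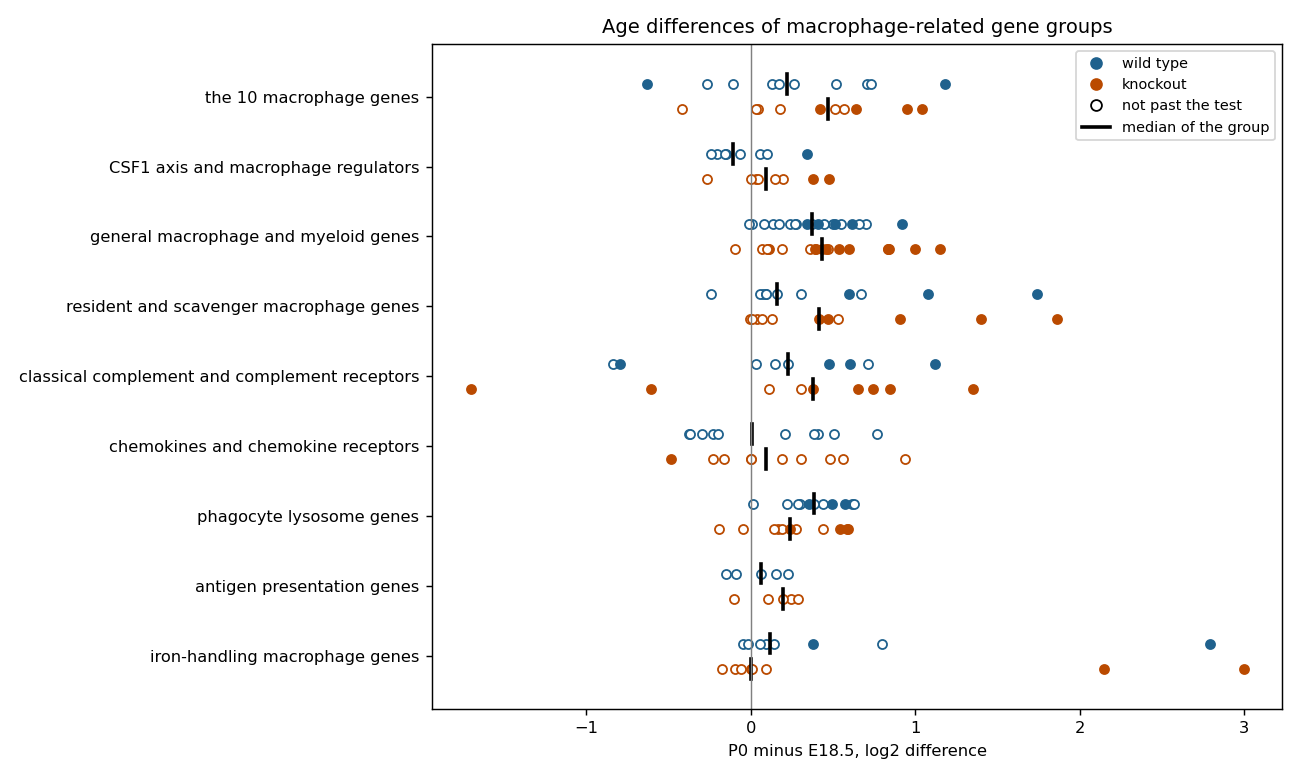
Log2 difference P0 minus E18.5 (x axis) of each tested gene in the 10 macrophage genes and 8 related groups (y axis), in wild type (blue) and knockouts (orange); filled points have a limma adjusted p under 0.05 and black bars mark group medians. Medians of the general macrophage genes are 0.37 and 0.43, and Hmox1 lies farthest right at 2.79 and 3.0.

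Other cells that share these markers were read through lists of their own. Their counts of called genes are to be set against the shares over all tested genes. These were 4.76% (wild type) and 11.3% (knockouts) called higher at P0, and 4.1% and 11.7% called lower. Genes of Kupffer cells and splenic macrophages had a mean of 4.76 to 5.06 on every array, and 6 of the 7 never rose 1 log2 unit above the array median. Among these were Clec4f, a marker of Kupffer cells, with a mean of 4.61, and Vsig4, which is also on the resident macrophage list, with 4.46. Timd4, which resident macrophages share with Kupffer cells, was the exception, with a mean of 6.06. Dendritic cell genes (6 of 7), lymphocyte genes (7 of 8) and spleen genes (4 of 6) were likewise near or below the array median. The exceptions were Clec9a (mean 5.24) of the dendritic cell genes, Il7r (6.57) of the lymphocyte genes, and Madcam1 (7.09) and Nkx2-3 (6.1) of the spleen genes.

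Of 4 monocyte genes 3 were clearly measured, and Cd300lf lay at the array median. The mean of the 4 was 6.97 ± 0.36 (SD, n = 4) in E18.5 wild type and 7.76 ± 0.43 (SD, n = 5) in P0 wild type, and 6.94 ± 0.21 (SD, n = 5) and 7.84 ± 0.37 (SD, n = 6) in knockouts. Of the 4, 1 rose in wild type and 2 in knockouts: Ly6c2 by 1.68 ± 0.51 in wild type (adjusted p = 0.0471), and in knockouts Ms4a6c by 1.37 ± 0.26 and Plac8 by 1.01 ± 0.31. Monocytes also express Lyz2, Csf1r, Cx3cr1 and Cd68, and their part in the age differences was not tested.

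Neutrophil genes ranged widely, with a list mean of 6.68 to 8.53 and S100a8 from 14.2 to 18.89. Of the 12 genes 4 never rose 1 log2 unit above the array median, among them Mpo and Elane at means of 4.84 and 4.20. Camp, Ngp and Ltf had means of 7.72, 6.02 and 5.34. None of the 9 tested passed between the ages in either genotype (limma, with 1 at an unadjusted p under 0.05 in each). Of the 5 tested mast cell genes, 0 rose in wild type and 1 in knockouts, Mcpt4 (1.52 ± 0.48, adjusted p = 0.0298). Hepatocyte genes had a mean of 7.36 to 13.10 and none of the 10 passed by limma (1 at an unadjusted p under 0.05 in each genotype), with medians of -1.50 in wild type and 0.38 in knockouts. Of 7 endothelial genes, which share Lyve1 with macrophages through the lymphatic vessels, 0 passed in either genotype by limma, with 2 and 1 at an unadjusted p under 0.05 and medians of 0.25 and 0.24.

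Genes of other pancreatic and neighbouring cells were read between the ages in the same way, to be set against the same shares of all tested genes. Of 7 acinar cell genes, which serve digestive enzyme secretion, 3 were lower at P0 in each genotype: Ptf1a, Rbpjl and Bhlha15. Cpa1, Ctrb1 and Cel read the highest value of the data on all 20 arrays, so a change in them could not be seen. The mean level of all 7 spanned 15.69 to 16.29 on the 4 E18.5 wild-type arrays and 14.81 to 15.27 on the 5 at P0. In knockouts it spanned 15.94 to 16.30 on the 5 E18.5 arrays and 14.69 to 15.46 on the 6 at P0. The ages did not overlap in either genotype. Of 7 mesenchyme genes 1 rose in wild type and 3 in knockouts. All 7 differences were above 0 in both, where 51.2% (wild type) and 49.3% (knockouts) of all tested genes were. Of 6 tested intestinal epithelium genes 1 fell in wild type and 3 in knockouts, of 4 tested lymphocyte genes 1 fell in each, and of 2 tested spleen genes 0 fell in wild type and 1 in knockouts. The part of these cells in the differences of the macrophage genes was not tested.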

How the data were processed

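The authors deposited log2 signals; the submitters' processing notes name RMA and Affymetrix Expression Console, version 1.4.1.46. RMA corrects background, normalises between arrays and summarises probes, which removes an overall shift of an array. Per the labels' protocols, extraction used the RNeasy Lipid Tissue Kit and amplification the Ovation PicoSL WTA V2 kit. Of 65956 probe sets, 30604 carried 1 symbol, and the one with the highest mean stood for its gene. A gene was tested if at least 4 arrays exceeded their median. The linear model held a mean per group over all 20 arrays (limma version 3.58.1, R version 4.3.3; 16 residual degrees of freedom) and was two-sided, with Benjamini-Hochberg adjustment over all 17993 genes in each contrast, after a check on simulated data. Differences are given ± SE. Genes were named by rule: the 10 genes, Elapor1, and from each related list up to 4 called genes with the largest difference or, with fewer than 2 called, 3 with the smallest p. From each list of other cells the mean level and up to 3 genes with the highest mean were taken, together with the 8 genes most like the 7 clearly measured ones. Clec4f, Vsig4, Mpo, Elane, Camp, Ngp, Ltf, Cd300lf, Ptf1a, Rbpjl and Bhlha15 fall outside this rule and were chosen after their values were seen. The 10 genes and all lists were chosen with earlier results of these data known. The number of arrays limits the precision. Among genes listed, Spi1, C3 and Cd74, without a probe set of 1 symbol, were not analysed here. Alternatives covered the filter, normalisation, moderation, array weights, covariates, a replicate block and each array left out.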

Additional observations from a re-analysis of the deposited data

Results flagged for a closer look

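The C1qa signal of E18.5 wild type 2 was 5.87, far above the other 3 arrays of its group (4.89 to 5.00). The C1qb signal of E18.5 wild type 1 was 5.95, far below the other 3 (6.35 to 6.38). The Mrc1 signal of E18.5 knockout 1 was 7.76, far below the other 4 (8.84 to 9.27); this array also had a skeletal muscle marker mean of 7.40. Chance alone sets apart about 1 array in 20 groups, and 3 of the 40 groups looked at were set apart.

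The genotype difference of C1qa ran in opposite directions at the 2 ages, with 5 of 5 knockouts below the wild-type mean at E18.5 and 6 of 6 above it at P0. The difference of the differences was 0.67 ± 0.24, with a limma adjusted p of 0.634, and C1qa lay around the array median.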

How the results depend on the processing

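Of 1745 values of single genes among the 10 under an alternative, 1652 kept their direction and their side of the threshold, 19 were no longer called, 10 became called and 64 changed sign; the differences that changed sign were called neither before nor after. Calls of Cd68 in wild type held in all 36 alternatives. Calls in wild type for the 10 genes numbered 1 with the stricter filter, the hepatocyte covariate or the intestinal covariate (main 2), and 1 to 3 with an array left out. In knockouts they numbered 0 with the intestinal covariate or without the marker-rich arrays (main 4). Averaged over both genotypes, 5 were called. All called genes between the wild-type ages (main 1594) numbered 1008 with only the arrays compared, 982 with the intestinal covariate, 2686 at an adjusted p under 0.10, 5487 averaged and 670 to 1822 with an array left out. Between the knockout ages (main 4139) they numbered 1814 with the intestinal covariate and 1913 without the marker-rich arrays. Between genotypes at E18.5 (main 2) they numbered 5 with array weights and 2 to 4 with an array left out. At P0 (main 2) they numbered 1 with array weights, only the arrays compared, the intestinal covariate or without the marker-rich arrays, 37 with the hepatocyte covariate, 43 at 0.10 and 1 to 45 with an array left out. For the genotype effect between ages (main 0) they numbered 0 to 34, with 34 without P0 wild type 1. The intestinal and hepatocyte covariates and the marker-rich arrays were set from lists chosen with the data known, and the cause of each shift was not tested.

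Signs turned as follows, all in log2 units. With quantile normalization repeated, Cd68 between genotypes at E18.5 was -0.0047 and Ccl3 between the knockout ages -0.0021. With arrays centred, C1qb was 0.0024 at E18.5, 0.0038 at P0 and 0.0014 between ages, and cyclic loess gave Cd68 -0.0074 at E18.5. With array weights C1qa between the knockout ages was -0.0066 and Adgre1 between genotypes at P0 -0.0096. The running sample number, centred within each age and so blind to the order of the ages, gave C1qb 0.040 for the genotype effect between ages. The hepatocyte covariate gave Maf -0.0021 (wild-type ages), Ccl3 -0.022 (knockout ages) and C1qb 0.037 (genotype, E18.5). The intestinal covariate gave Lyz2 -0.022 (wild-type ages), C1qa -0.035 and Ccl3 -0.18 (knockout ages), C1qb 0.095 and C1qc 0.048 (genotype, E18.5) and C1qb 0.0044 (genotype, P0). Without the marker-rich arrays C1qa was -0.047 (knockout ages), C1qb 0.17, C1qc 0.021 and Cd163 0.073 (genotype, E18.5), and the genotype effect between ages was -0.15 for Lyz2 and -0.0996 for Mrc1. Averaged over both genotypes, the age difference was -0.032 for Adgre1 and -0.30 for C1qa. With 1 array left out, genotype differences at E18.5 ran from -0.14 to 0.078 for C1qb, -0.20 to 0.034 for Cd163, -0.21 to 0.044 for Cx3cr1, -0.036 to 0.0815 for Cd68 and -0.11 to 0.055 for C1qc. At P0 they ran from -0.16 to 0.11 for C1qb, -0.02375 to 0.047 for Adgre1, -0.22 to 0.20 for Lyz2, -0.20 to 0.019 for Mrc1 and -0.01075 to 0.16 for Csf1r. The effect between ages ran from -0.012 to 0.37 for Mrc1 and -0.14 to 0.125 for C1qb. Age differences ran from -0.046 to 0.12 for C1qa and -0.071 to 0.11 for Ccl3 in knockouts, and from -0.019 to 0.31 for Lyz2, -0.077 to 0.18 for Maf and -0.032 to 0.13 for H2-Eb1 in wild type.

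Replicate numbers are shared between groups, but 8 of 27 same-numbered pairs had a correlation of deviations over 0.1 (range -0.305 to 0.245) and 8 of 20 arrays correlated best with their own number, so the numbers were not treated as pairs. With the replicate block (correlation -0.001), 2 and 4 of the 10 genes were called between the ages in wild type and knockouts, and 0 between genotypes; 1589 and 4137 genes were called between the ages.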
